A study of Mus musculus with 24 samples.

Results

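Colon gene expression of male and intact female mice fed the high fat diet (HFD) was compared on 8 of the 24 arrays of the study, 4 of male mice (M + HFD) and 4 of female mice with ovaries in place (F + HFD). The arrays were chosen by the sex and diet in their labels, with 1 mouse per array. All were C57BL/6J mice, 7 weeks old at purchase, that had sham surgery, the carcinogen azoxymethane (AOM) injected once at 10 mg/kg, and then drinking water with 1.5% of the colitis agent dextran sulfate sodium (DSS) in 3 rounds. HFD held 45 kcal% fat and was fed for 14 weeks, and the remaining distal colon was taken 75 days after AOM. Mice for the arrays were those nearest the average body weight of their group, and every group received AOM and DSS, so no healthy colon is among these arrays. M + LFD and F + LFD, 4 arrays each, received the same treatment and a diet of 10 kcal% fat, and they serve below to set each HFD difference beside the same difference in other mice. Ovariectomized females on HFD, also 4 arrays, had ovariectomy in place of sham surgery and the same AOM and DSS, and their means are given for a few genes. The M + LFD arrays were uneven. On the log2 scale Hoxb7 read 12.09 and 11.62 on M + LFD 1 and 2, 6.92 and 6.68 on M + LFD 3 and 4, and 6.08 to 8.29 in F + LFD. All LFD values below include these arrays, and the reason for the split was not tested.

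Male and female arrays lay on different slides, all M arrays on 1 slide and all F arrays on another, so sex and slide cannot be told apart in any difference between M and F. The arrays of ovariectomized females lay on a separate slide from both, so ovariectomy and slide cannot be told apart either. Xist, the transcript made by the inactive X chromosome, read 2.04 to 2.28 on the M + HFD arrays, above background on none, and 9.11 to 9.70 on the F + HFD arrays on the log2 scale. The Y-linked genes Ddx3y, Kdm5d, Uty and Eif2s3y were above background on 4 M + HFD arrays and 0 F + HFD arrays. Genes on X and Y were then left out. The epithelial keratin gene Krt8 read 16.61 to 16.85 on the 8 arrays and the mucin gene Muc2 16.11 to 17.12, while the seminal vesicle genes Svs2, Svs4, Svs5 and Svs6 and the progesterone receptor gene Pgr were well above background on none of them. F + HFD 2 was the dimmest array, with 43.6% of probes well above background against 47.4% to 60.1% on the other 7, and p-values measure the spread between mice on these arrays.

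In the distal colon, stem cells at the base of the crypt give rise to dividing progenitors, which mature into absorptive colonocytes and mucus-secreting goblet cells as they move up. Beneath the epithelium lie immune cells, vessels, smooth muscle and nerves, and fat adheres to the outer wall. A bulk RNA sample mixes all of these, so that fewer cells of a type and less RNA per cell cannot be told apart. Estrogen and androgen act through nuclear receptors, several of which are found in the gut, and the liver is known to differ between the sexes in enzymes that handle drugs and steroids.

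Of 12977 autosomal genes tested, 831 (6.4%) were called, that is, had an unadjusted limma p under 0.05 and a difference of at least 1.5-fold. Of these, 384 (2.96%) were higher in M + HFD and 447 (3.44%) higher in F + HFD, and 258 differed by at least 2-fold, 102 higher in M and 156 higher in F. The median difference over all genes was -0.02 log2. An unadjusted p under 0.05 was reached by 1543 genes (11.9%), where 649 would do so if p-values were uniform. After Benjamini-Hochberg adjustment in limma, 3 genes (0.0231%) had an adjusted p under 0.05, and all 3 were higher in M. That count was 0 when any 1 of the F + HFD arrays was left out and 1 or 2 without an M + HFD array. It was also 0 when genes had to be well above background on all arrays compared. The 4 arrays of one group lay above the 4 of the other for 354 of the called genes, and for 983 (7.57%) of all genes tested. The calls outside those 3 genes are therefore differences at an unadjusted threshold.

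Upp2, which encodes a uridine phosphorylase that splits uridine in pyrimidine salvage, had the lowest p. Its log2 signal was 9.29, 9.48, 9.06 and 10.07 on M + HFD 1 to 4 and 7.80, 7.72, 7.58 and 7.54 on F + HFD 1 to 4. Every male array lay above every female array, and the difference was 3.52-fold (log2 1.81 ± 0.22 SE, limma adjusted p = 0.0356; exact permutation p = 0.0286, two-sided, the smallest that 4 against 4 arrays can give). Every gene whose groups do not overlap has that exact p, so it adds nothing for genes named because their groups were separated. On LFD the difference was 1.32 ± 0.21. The level in ovariectomized females on HFD (mean 7.64, on their own slide) was close to that of F + HFD (7.66 ± 0.12 SD, n = 4). Trpm1, encoding a cation channel known from retinal bipolar cells and melanocytes, read 7.90, 8.23, 7.57 and 7.82 in M + HFD and 6.48, 6.24, 6.58 and 6.67 in F + HFD (log2 1.39 ± 0.18, limma adjusted p = 0.0497). It is named because its p passed the adjustment. Vmn1r52, a vomeronasal receptor gene, was above background on all M + HFD arrays (5.94, 5.72, 5.60 and 5.14) and on no F + HFD array. Its difference is therefore given as at least 2.07-fold higher in M (limma adjusted p = 0.0369). The gene was tested only because the M + HFD arrays passed the background filter, so that p is no separate support for the difference. For the bound, the male mean was divided by the dimmest signal that passed the background flag on the female arrays. The bound holds for the main processing only. With normexp background correction, which compresses low signals, the log2 difference of Vmn1r52 was 0.57 and the gene was not called.

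**Figure D1:**
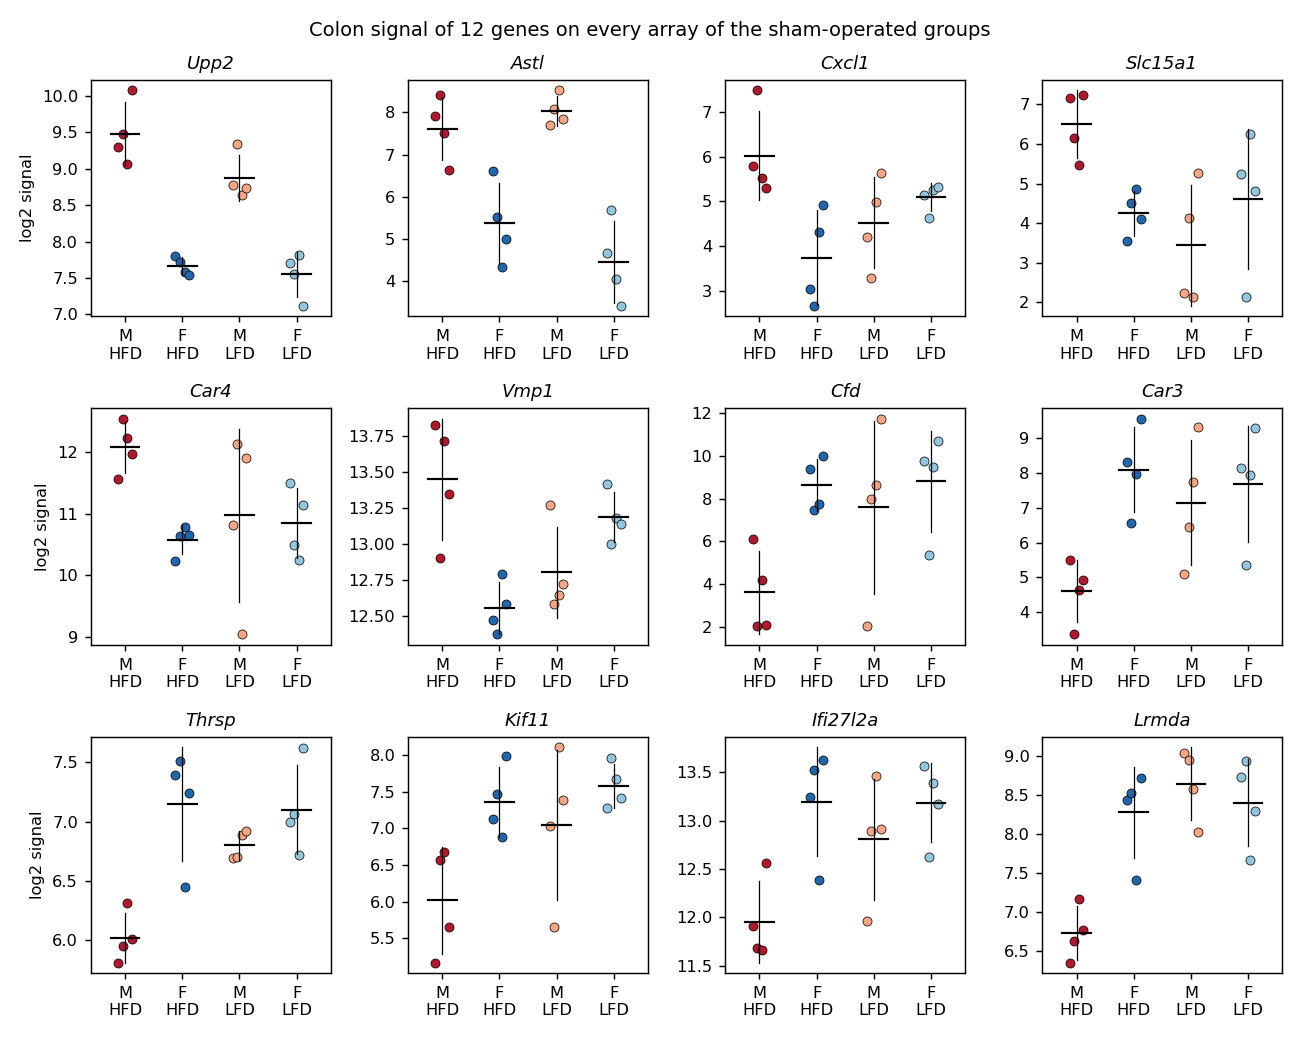
Log2 signal of 12 genes on every array of M and F in HFD and LFD; points are arrays, horizontal bars group means and vertical lines ± 1 SD (n = 4). Upp2 and Astl lie higher in males in both diets, Cxcl1, Slc15a1 and Vmp1 are separated between the sexes in HFD but not in LFD, and Cfd, Car3 and Lrmda are low on the 4 M + HFD arrays.

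Other genes that were higher in M and separated between the groups included Astl, encoding an astacin-family metalloprotease. It read 7.91, 8.41, 7.51 and 6.63 in M + HFD and 6.62, 5.51, 4.34 and 4.99 in F + HFD (log2 2.25 ± 0.52) with M + HFD 4 just above F + HFD 1. The difference was 3.59 ± 0.45 on LFD. Ovariectomized females on HFD had an Astl mean of 6.56, between those of M + HFD (7.62) and F + HFD (5.36). Gm16325 (1.67 ± 0.26) and the pseudogene Sprr2j-ps (1.62 ± 0.23), which is close in sequence to expressed genes of the small proline-rich family and may share signal with them, were likewise higher in males in both diets. Lce3d, of the late cornified envelope family, differed by 2.13 ± 0.39 and Zc3h12a, encoding an RNase that degrades cytokine messages, by 1.62 ± 0.36. These 2 were well above background on 4 M + HFD arrays and 1 F + HFD array each. Smco1 (1.54, and 0.93 without F + HFD 2), Kctd21 (1.69), the olfactory receptor gene Olfr681 (1.49) and 1700102J08Rik complete the 12 largest together with Cxcl1 and Slc15a1, described with their lists. 1700102J08Rik is named without a value, since the probe used passed the background flag on 0 F + HFD arrays, although some probe of the gene did on 2. With normexp background correction, which compresses low signals, the differences of dim genes were smaller, at 1.28 for Astl, 0.58 for Lce3d and 0.49 for Zc3h12a.

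The largest separated differences toward F + HFD, after Cfd and Car3, belonged to several genes of low signal. Klhl30 read 4.90, 2.30, 5.01 and 4.94 in M + HFD and 6.04, 6.50, 5.41 and 5.97 in F + HFD (-1.70 ± 0.59). Hand1, a transcription factor of mesoderm, differed by -1.66 ± 0.68, Diras2, of the Ras family, by -1.59 ± 0.53, and Map1a, a microtubule protein of neurons, by -1.56 ± 0.59. In all 4, M + HFD 2 was the lowest array, and without it the differences were -1.03, -0.89, -1.03 and -0.91. They were -0.55, -0.56, -0.83 and -0.54 with normexp background correction. By the flags, Klhl30, Hand1 and Diras2 were well above background on 3 M + HFD arrays and Map1a on 2. Zfp982 (-1.48), 4933409K07Rik (-1.47) and the glutamate transporter gene Slc1a3 (-1.45 ± 0.32) followed. Zfp982 and Slc1a3 were well above background on 2 M + HFD arrays each. With normexp background correction they differed by -0.55 and -0.52 and were not called, while 4933409K07Rik (-0.66) was. Slc1a3 read 4.73, 5.15, 4.52 and 3.56 against 6.06, 6.04, 5.57 and 6.07, and its LFD difference was -1.02 ± 0.47.

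The proliferation genes gave the most calls of any list. Of 28 members tested, 22 were called, all higher in F + HFD, against 3.44% of all genes, and all 28 had a lower mean in M (median difference -0.99 log2 against -0.02 over all genes). Kif11, a motor protein of the mitotic spindle, read 5.17, 6.57, 6.68 and 5.65 on M + HFD 1 to 4 and 7.12, 7.46, 6.88 and 7.98 on F + HFD 1 to 4 (log2 -1.34 ± 0.38, limma adjusted p = 0.247; exact permutation p = 0.0286). All male arrays lay below all female arrays, with M + HFD 1 lowest. Ccnb2, a cyclin that drives entry into mitosis, read 9.84, 10.76, 11.19 and 10.14 in M + HFD and 11.45, 11.30, 11.47 and 12.65 in F + HFD (-1.24 ± 0.38). The proliferation marker Mki67 read 10.51, 11.77, 11.48 and 10.58 against 11.70, 11.91, 12.01 and 12.58 (-0.97 ± 0.33), and here M + HFD 2 overlapped the female arrays.

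The groups did not overlap for 8 of the 22 called members, while 42.6% of all called genes had no overlap. The 8 were Kif11, Ccna2, Birc5, Ccnb2, Plk1, Ccnb1, Cdc20 and Bub1b, cyclins and other genes of mitosis, at differences between -1.34 and -1.06. For the helicase subunit genes of DNA replication Mcm5 (-1.22), Mcm3 (-0.95), Mcm7 (-0.82) and Mcm6 (-0.80) M + HFD 2 read within or above the female range. The 6 members that were not called were Foxm1 (-0.90), Aurkb (-0.80), Cenpa (-0.79), Mcm2 (-0.77), Mcm4 (-0.59) and Pcna (-0.29). The mean log2 signal of the list was 8.63, 10.09, 9.62 and 9.06 on M + HFD 1 to 4 and 9.98, 10.27, 10.11 and 10.95 on F + HFD 1 to 4, so M + HFD 1 was lowest and F + HFD 4 highest. On LFD 0 of the members were called in limma, with 0 at an unadjusted p under 0.05, and their median difference was -0.41. Of the 28, 0 were called for the difference between diets, again with 0 at an unadjusted p under 0.05. The count depended on single arrays, falling to 9 without M + HFD 1, M + HFD 4 or F + HFD 4, to 10 without F + HFD 2 and to 9 with the methods' t-test. Which cells the signal came from was not tested.

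Promoters of many cell cycle genes carry a CCAAT box and a cell cycle homology region, TTTGAA, and 2 are shown because Kif11 and Ccnb2 had the largest differences among called members with both motifs. The motifs were chosen after the counts were seen. Each line gives the 250 bases before the start of transcription from RefSeq, build GRCm38.p6, 5′ to 3′ on the strand of the gene, Kif11 at chr19:37376132-37376381 (plus) and Ccnb2 at chr9:70421555-70421804 (minus), with matches to TTTGAA and CCAAT on either strand in capitals.
Kif11: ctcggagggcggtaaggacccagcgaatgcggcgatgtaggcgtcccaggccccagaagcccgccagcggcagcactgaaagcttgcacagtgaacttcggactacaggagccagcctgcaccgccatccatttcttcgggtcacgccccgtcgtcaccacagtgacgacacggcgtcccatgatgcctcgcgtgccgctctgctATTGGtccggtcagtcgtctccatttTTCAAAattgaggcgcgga
Ccnb2: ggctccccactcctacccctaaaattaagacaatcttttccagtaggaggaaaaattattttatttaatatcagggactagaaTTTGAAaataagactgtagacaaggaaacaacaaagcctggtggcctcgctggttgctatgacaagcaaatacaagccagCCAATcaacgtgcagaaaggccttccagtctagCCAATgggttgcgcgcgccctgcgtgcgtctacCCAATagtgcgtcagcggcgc
RefSeq windows from 250 bases before to 50 after the start were given for 20 of the 22 called members, 21 windows in all. CCAAT was found in 19 of them (90.5%) against 37.3% of all 31396 autosomal windows, and TTTGAA in 10 (47.6%) against 17.6%. The E2F-like letters TTTNNCGC were found in 6 (28.6%) against 5.13%. In the 24 windows of all tested members, CCAAT was found in 22 (91.7%), TTTGAA in 12 (50%) and TTTNNCGC in 6 (25%). The shares among called members were thus close to those of the whole list, and the motifs do not set the called members apart from it. Over all called genes higher in F, TTTNNCGC was in 12.1% of 431 windows and over those higher in M in 3.58% of 363. These are counts of letters, not of bound sites.

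**Figure D2:**
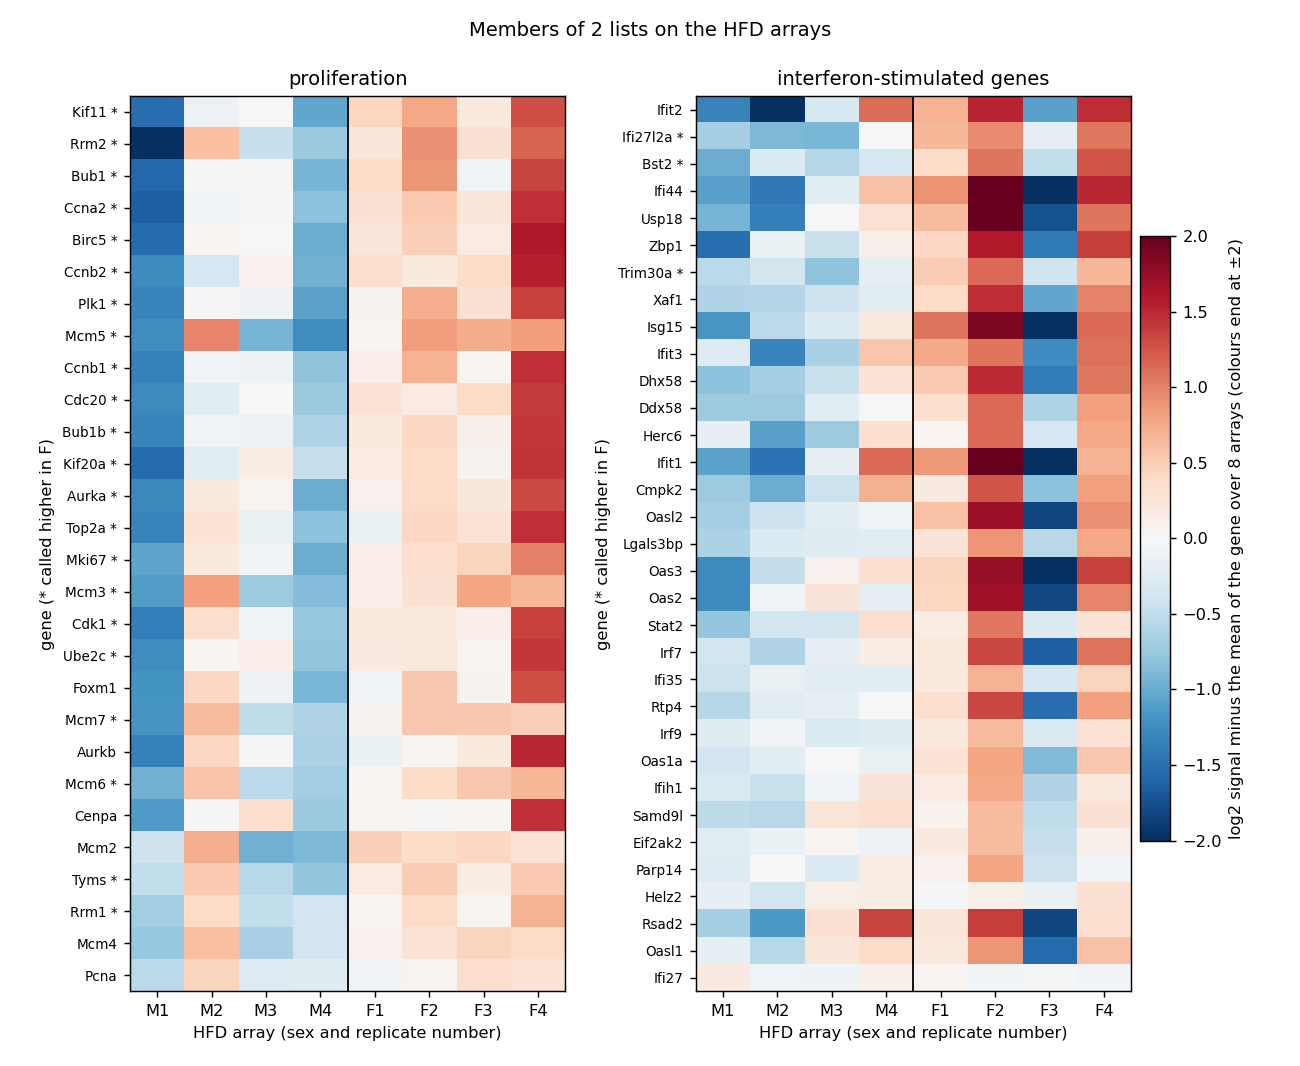
Log2 signal of each gene minus its mean over the 8 HFD arrays, for the proliferation list (28 genes) and 33 genes of the interferon-stimulated list; columns are arrays, the black line parts M from F and asterisks mark genes called higher in F. M + HFD 1 is lowest and F + HFD 4 highest for most proliferation genes, and F + HFD 3 lies with the male arrays or below them for most interferon-stimulated genes.

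Several genes of fat cells and lipid synthesis were higher in F + HFD. Cfd, which encodes adipsin, a protease secreted by adipocytes, had the largest difference of all named genes. It read 6.13, 2.05, 4.19 and 2.07 on the M + HFD arrays, well above background on 1 of 4, and 9.37, 7.45, 7.74 and 9.99 on the F + HFD arrays (log2 -5.03 ± 0.97, limma adjusted p = 0.151). Car3, a carbonic anhydrase abundant in fat and muscle, read 5.50, 3.36, 4.62 and 4.93 against 8.31, 6.56, 7.97 and 9.56 (-3.50 ± 0.64). Neither gene overlapped between the groups in HFD, while on LFD both ranged widely within each sex (Cfd SD 4.06 in M + LFD and 2.37 in F + LFD) and differed by -1.23 and -0.54. Thrsp, a regulator of fatty acid synthesis in fat and liver, read 5.81, 5.95, 6.31 and 6.01 against 7.39, 7.51, 6.45 and 7.24 (-1.13 ± 0.24), and Fabp4, the fatty acid carrier of adipocytes, differed by -0.72 ± 0.31 with M + HFD 4 inside the female range. The other Fabp4 probe differed by -0.14. With normexp background correction the differences of Cfd and Car3 were -2.60 and -1.98. Of the adipocyte list, 4 of 11 members tested were called, all higher in F, against 3.44% of all genes (median -0.72). Adipoq, which encodes the hormone adiponectin, was above background on 1 M + HFD and 2 F + HFD arrays, Plin1 on none, and Lep (0.23) and Cidea (-0.01) did not differ by 1.5-fold. The summed signal of the list ranged from 4940 to 10500 in M + HFD and from 8120 to 15500 in F + HFD, and the part of fat attached to the tissue was not tested.

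Of 30 genes of fatty acid and cholesterol synthesis, 8 were called, all higher in F + HFD, against 3.44% of all genes (median -0.51). Besides Thrsp they were Fads1, a desaturase of polyunsaturated fatty acids (-0.98 ± 0.33), Insig1, which holds back the activation of sterol regulatory proteins (-1.04 ± 0.43), and the cholesterol pathway enzymes Lss (-0.85), Idi1 (-0.81), Mvd (-0.74), Fdps (-0.71) and Mvk (-0.60). Idi1, which isomerizes the isoprenoid precursor, read 10.87, 11.65, 11.68 and 11.98 in M + HFD and 12.13, 12.54, 12.60 and 12.18 in F + HFD. The groups were separated, and the gene was also called on LFD (-0.61 ± 0.24). M + HFD 1 was the lowest array for most of the pathway, and 3 members were called without it, 4 without F + HFD 2 and 5 without F + HFD 4. The fatty acid synthase gene Fasn (-0.33 ± 0.19) and the regulator gene Srebf2 (0.04 ± 0.23) were not called. Of 29 PPAR targets and genes of fat oxidation 0 were called in limma and 0 with the methods' t-test (3 at an unadjusted p under 0.05, median -0.08), and of 32 respiratory chain genes likewise 0 and 0 (1 at that p, median -0.09).

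Part of the absorptive colonocyte genes were higher in M + HFD. Of 18 tested, 7 were called, all higher in M (2.96% of all genes), and the median difference was 0.44. Slc15a1, the peptide transporter PepT1, read 7.16, 6.16, 5.46 and 7.23 in M + HFD and 3.54, 4.50, 4.86 and 4.11 in F + HFD, where 1 array was well above background (2.25 ± 0.44, and 0.88 with normexp background correction). Car4, a membrane carbonic anhydrase of surface colonocytes, read 11.56, 12.53, 12.23 and 11.96 against 10.24, 10.63, 10.78 and 10.66 (1.49 ± 0.23, limma adjusted p = 0.115; exact permutation p = 0.0286). The groups did not overlap for Car4, whose LFD difference was 0.12 ± 0.65. The others were the water channel Aqp8 (1.21 ± 0.28), the acute phase protein Saa1 (1.30 ± 0.37), the proton pump Atp12a (1.88 ± 0.77, with M + HFD 3 at 8.21 and F + HFD 3 at 10.12 crossing the groups), the chloride exchanger Slc26a3 (1.04 ± 0.38) and the phosphate transporter Slc20a1 (1.01 ± 0.36). Members of the same list that differed little or the other way were Vil1 (-0.01), Krt20 (0.22), Car1 (0.10), Guca2a (-0.14) and Aqp4 (-0.57). With all 24 arrays in 1 fit 2 members were called, and without F + HFD 4 the count was 4.

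Epithelial genes shared by all types of colonocyte leaned the same way by smaller amounts. All 13 members had a higher mean in M (median 0.28) and 2 were called, against 2.96% of all genes, the transcription factor gene Elf3 (0.85 ± 0.17) and the claudin gene Cldn4 (1.79 ± 0.69), while Epcam differed by 0.49 and Krt8 by 0.05. Among 19 tight junction genes, Cldn4 and F11r, which encodes the adhesion molecule JAM-A (0.62 ± 0.19), were called, both higher in M, against 2.96% of all genes. Of 20 goblet cell genes 0 were called in limma or the methods' t-test (1 at an unadjusted p under 0.05, median 0.01). Muc2, the gel-forming mucin of the colon, read 16.11, 16.56, 16.98 and 16.71 in M + HFD and 17.12, 17.12, 16.34 and 17.00 in F + HFD (-0.30 ± 0.24, limma adjusted p = 0.596), and its dimmer probe differed by -1.27. Pigr, which carries antibodies across the epithelium, was called higher in M from its brighter probe (0.77 ± 0.14), but its other probe differed by -0.86. Smooth muscle genes leaned to F, with 3 of 17 called against 3.44% of all genes, Pcp4 (-1.33), Hspb6 (-1.20) and Tagln (-0.77), and a median of -0.76. The mean signal of the smooth muscle list was 10.13 on M + HFD 2 and 11.40 to 12.27 on the other 7 arrays, and the count was 13 without M + HFD 1, 1 without any other array, 8 with normexp background correction and 7 with scaling to the 75th percentile. The part of muscle in the epithelial differences was not tested.

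**Figure D3:**
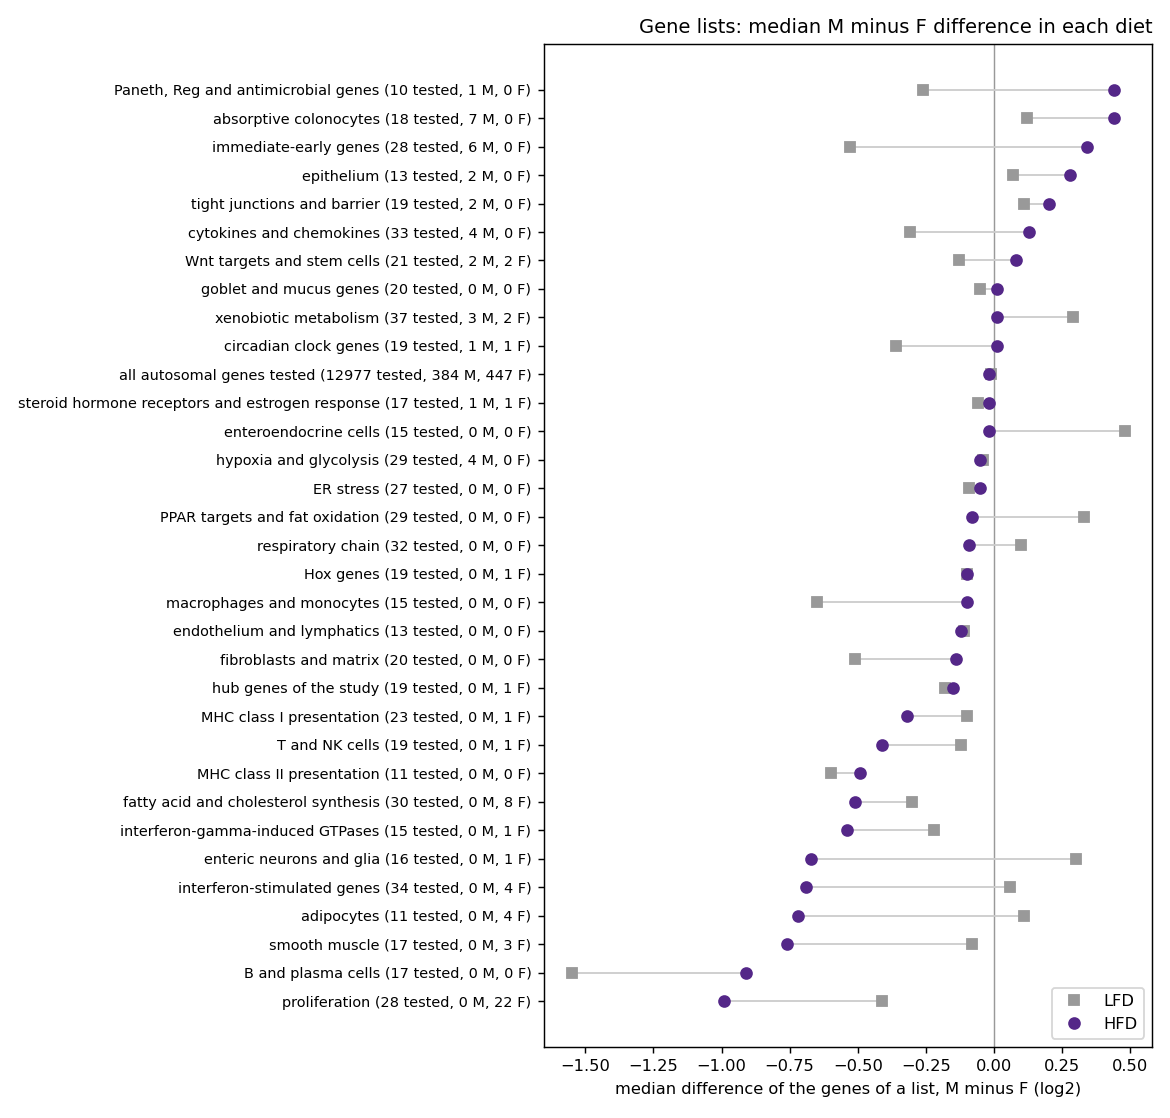
Median difference between M and F over the genes of each list with at least 10 members tested, in HFD (circles) and LFD (squares); the axis is log2, values above 0 are higher in M, and the labels give the members tested and called in HFD. Proliferation (-0.99), B and plasma cells (-0.91) and smooth muscle (-0.76) lie farthest to the female side in HFD, and absorptive colonocytes and the Paneth, Reg and antimicrobial genes (both 0.44) to the male side.

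Interferon-stimulated genes had lower means in M + HFD for 33 of 34 members (median -0.69), and 4 were called, all higher in F, against 3.44% of all genes. Ifi27l2a, a small membrane protein induced by type I interferon, read 11.91, 11.68, 11.66 and 12.56 in M + HFD and 13.24, 13.52, 12.39 and 13.63 in F + HFD (-1.24 ± 0.31). Bst2, which tethers budding virus (-1.10 ± 0.37), and the ubiquitin ligase gene Trim30a (-0.95 ± 0.31) followed. For all 3, F + HFD 3 overlapped the males. The mean of the list was 9.13 on F + HFD 3, the lowest of the 8 arrays, and 10.52, 11.32 and 10.92 on the other 3 female arrays, against 9.51 to 10.34 in M + HFD. Without F + HFD 3, 26 of the members were called, all higher in F, and without M + HFD 4, 8. With all arrays the transcription factor gene Irf7 differed by -0.50 ± 0.58 and Isg15 by -0.89 ± 0.81. On LFD the median was 0.06 and 0 were called in limma, with 0 at an unadjusted p under 0.05.

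Both called genes of this list that had a RefSeq promoter window held the letters of the interferon-stimulated response element, GAAA and GAAA with 2 bases between, on either strand, and they are shown for that reason. The 250 bases before each start are given as above, Bst2 at chr8:71537473-71537722 (minus) and Trim30a at chr7:104465194-104465443 (minus), with matches in capitals, a pair that overlap in Bst2.
Bst2: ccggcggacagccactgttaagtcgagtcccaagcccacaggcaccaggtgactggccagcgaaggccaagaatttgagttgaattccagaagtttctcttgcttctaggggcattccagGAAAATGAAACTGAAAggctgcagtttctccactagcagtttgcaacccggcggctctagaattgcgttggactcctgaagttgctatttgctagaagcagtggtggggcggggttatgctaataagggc
Trim30a: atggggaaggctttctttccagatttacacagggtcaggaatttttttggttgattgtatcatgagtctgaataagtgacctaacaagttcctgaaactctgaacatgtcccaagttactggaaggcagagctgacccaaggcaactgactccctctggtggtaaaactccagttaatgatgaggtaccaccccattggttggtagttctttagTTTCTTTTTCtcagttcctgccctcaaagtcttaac
The letters were found in 13 of the 28 windows of tested members (46.4%) and in 3.46% of all autosomal windows, and in 5.34% of the windows of all genes higher in F.

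Immune cell lists gave few calls, beside the 3.44% of all genes called higher in F. Of 19 T and NK cell genes, Cd3d, a chain of the T cell receptor complex, was called (-0.71 ± 0.31, with M + HFD 2 and 4 in the female range). Of 17 B and plasma cell genes 0 were called in limma, with 0 at an unadjusted p under 0.05, although all 17 had a lower mean in M (median -0.91 in HFD and -1.55 in LFD), and the list mean ran from 6.52 on M + HFD 4 to 10.32 on F + HFD 3. Of 11 MHC class II genes 0 were called (median -0.49, 0 at that p), of 23 MHC class I genes the regulator Nlrc5 (-0.78 ± 0.26), and of 15 interferon-gamma-induced GTPase genes Gbp3 (-0.97 ± 0.37), a list with 9 calls without F + HFD 3. Macrophage, mast cell, fibroblast and endothelial lists had 0 calls in limma and in the methods' t-test and 0 genes at that p, with medians of -0.10, -0.01, -0.14 and -0.12. Among the 19 hub genes that the study picked from these mice, Cd3d alone was called (median -0.15), and the list is no independent evidence of a direction.

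A few cytokine and chemokine genes were higher in M + HFD. Of 33 tested, 4 were called, all higher in M, against 2.96% of all genes, while 19 members had a higher mean in M and 14 in F (median 0.13). Cxcl1, which attracts neutrophils, read 5.79, 7.48, 5.51 and 5.29 in M + HFD and 3.04, 2.66, 4.31 and 4.92 in F + HFD, where 1 array was well above background (2.28 ± 0.61, limma adjusted p = 0.235). The groups did not overlap, on LFD the difference was -0.57 ± 0.46, and with normexp background correction the HFD difference was 0.74. The monocyte chemokine gene Ccl2 read 8.02, 8.77, 7.55 and 8.36 against 6.99, 6.03, 7.26 and 7.65 (1.19 ± 0.37), Ccl7 differed by 1.04 ± 0.45, and Il18, an epithelial cytokine of the inflammasome, by 0.65 ± 0.25. The inflammatory cytokine gene Tnf ranged from 5.59 to 6.62 in M + HFD and from 4.81 to 8.75 in F + HFD (0.22 ± 0.80), and Il6 was well above background on no M or F array. The count was 2 with the methods' t-test. Lists of neutrophil and cytokine genes share Cxcl1, the only call among the 8 neutrophil genes tested.

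Immediate-early genes, which respond within minutes to growth factors and stress, had 6 of 28 members called, all higher in M + HFD, against 2.96% of all genes (median 0.34). Fosb read 10.13, 7.54, 8.31 and 7.70 in M + HFD and 7.55, 6.47, 6.49 and 5.50 in F + HFD (1.92 ± 0.61), so that only F + HFD 1 reached the male arrays, at the level of M + HFD 2. Atf3, a stress-induced transcription factor (1.57 ± 0.55), Myc (0.93 ± 0.39), Dusp6 (0.70 ± 0.17), Maff (0.70 ± 0.29) and Zfp36 (0.67 ± 0.29) followed, whereas Fos (0.09) and Jun (-0.06) did not differ by 1.5-fold. The count was 2 without M + HFD 1 or with the methods' t-test and 3 without M + HFD 3 or F + HFD 2. On LFD the list leaned the other way, with 11 members called higher in F, against 1.3% of all genes, and a median of -0.53. In the test of the difference between diets 10 members were called, against 2.55% of all genes, among them Junb (1.18 ± 0.31), Rhob (1.08 ± 0.33) and Egr1 (1.84 ± 0.68), each with a limma adjusted p of 0.963.

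Genes of steroid signaling gave 2 calls among 17 tested, in opposite directions, where 6.4% of all genes were called. The estrogen receptor gene Esr2 read 10.97, 10.84, 10.65 and 10.66 in M + HFD and 10.36, 10.76, 10.79 and 10.49 in F + HFD (0.18 ± 0.15), Esr1 differed by 0.04 ± 0.38 and the membrane receptor gene Gper1 by 0.61 ± 0.38, all with overlapping groups. Of 17 genes of the list, Hsd17b2, which inactivates estradiol and testosterone, was called higher in M (0.61 ± 0.17) and Hsd17b7, of cholesterol and estrogen synthesis, higher in F (-0.66 ± 0.19). The estrogen response element, GGTCA and TGACC with 3 bases between, was found in 23 of all windows (0.0733%) and in 0 of the 363 windows of genes higher in M and 0 of the 431 of genes higher in F. The androgen and glucocorticoid response element, AGAACA and TGTTCT with 3 bases between, was found in 3 windows, none of them of a called gene.

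Of 37 genes of xenobiotic metabolism, the carboxylesterase genes Ces2a (1.08 ± 0.22) and Ces2c (0.86 ± 0.20) and the monooxygenase gene Fmo5 (0.83 ± 0.30) were higher in M and Ces1g (-1.22 ± 0.51) and Gsta3 (-0.86 ± 0.32) higher in F, 5 calls in all against 6.4% of all genes. Of 29 hypoxia and glycolysis genes 4 were called, all higher in M, against 2.96% of all genes, Hk2, which starts glycolysis (0.93 ± 0.30), P4ha1 (0.76), Vegfa (0.73) and the glucose transporter gene Slc2a1 (0.65), while the list median was -0.05, and the 3 Vegfa probes ranged from -0.15 to 0.75. Wnt targets went both ways, with 4 of 21 called against 6.4% of all genes, Axin2 (1.37 ± 0.47) and Myc higher in M and Cd44 (-0.74 ± 0.27) and Znrf3 (-0.61 ± 0.21) higher in F. The 3 Znrf3 probes ranged from -0.61 to -0.05. Hlf (-1.07) was a call of the circadian list, and Hoxb7 (-0.66), Tubb3 (-0.86), Ckm (-1.64) and Cela1 (0.69) were the single calls of the Hox, enteric neuron, skeletal muscle and pancreas lists (19, 16, 5 and 2 tested), and without M + HFD 2 Ckm differed by -0.90. Over all genes 3.44% were called higher in F and 2.96% higher in M, so single calls in lists of this size say little about a list. The enteroendocrine, ER stress, anal squamous and reproductive tract lists had 0 calls in limma and in the methods' t-test, with 3, 2, 0 and 0 genes at an unadjusted p under 0.05 and medians of -0.02, -0.05, 0.11 and 0.13.

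The same comparison in LFD, on other mice but the same pair of slides, called 391 of 13588 autosomal genes (2.88%), 214 higher in M (1.57%) and 177 higher in F (1.3%), of which 2 genes (0.0147%) had a limma adjusted p under 0.05. Of the 805 genes called in HFD and tested in both diets, 86 were called in LFD in the same direction, which is 10.7% of them and 27.1% of the 317 LFD calls tested in both diets. They were 70 of 371 genes higher in M (18.9%) and 16 of 434 higher in F (3.69%). The sign was the same in LFD for 80.4% of the HFD calls and for 62.4% of the genes not called in HFD. The median LFD difference was 0.34 for genes higher in M on HFD and -0.30 for genes higher in F, whose HFD medians were 0.80 and -0.89. Genes such as Upp2, Astl, Trpm1, Axin2 and Sprr2j-ps were higher in M in both diets, and Pimreg, a regulator of mitosis (-1.62 and -1.10), Heg1 (-1.62 and -1.04) and Idi1 higher in F in both. Heg1 was well above background on 1 M + HFD array and Axin2 on 2 F + HFD arrays. With normexp background correction neither was called in HFD, at -0.39 and 0.50. In both diets sex and slide cannot be told apart.

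The difference between diets was tested directly, as the HFD minus the LFD difference. Of 13670 genes, 349 (2.55%) were called, 215 (1.57%) with the M side higher in HFD and 134 (0.98%) with the F side, and 451 (3.3%) reached an unadjusted p under 0.05, fewer than the 684 that uniform p-values would give. In limma 0 had an adjusted p under 0.05, and 0 in the methods' t-test and with the replicate block. The lowest p was that of Vmp1, which acts in autophagy. It read 13.83, 12.90, 13.72 and 13.35 in M + HFD and 12.47, 12.37, 12.79 and 12.58 in F + HFD, and the LFD difference was -0.38 ± 0.18 (difference between diets 1.28 ± 0.29, limma adjusted p = 0.963). On the other side stood Mtus2 (-1.72 ± 0.41), Cyth3 (-0.98 ± 0.26) and Lrmda, linked to melanocyte differentiation, which read 6.35, 6.63, 7.17 and 6.77 in M + HFD and 8.44, 8.53, 7.41 and 8.72 in F + HFD and differed by 0.24 ± 0.33 on LFD. M + HFD was the low group for Lrmda, since M + LFD (8.65 ± 0.46 SD, n = 4) was close to both female groups. The 5 genes called in opposite directions in HFD and LFD were all higher in M on HFD and higher in F on LFD, among them Nt5e, Il18, Spink1 and Zfp36. Nt5e, an ectoenzyme that makes adenosine, differed by 0.81 and -2.08, and Spink1, a trypsin inhibitor, by 0.79 and -1.33.

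**Figure D4:**
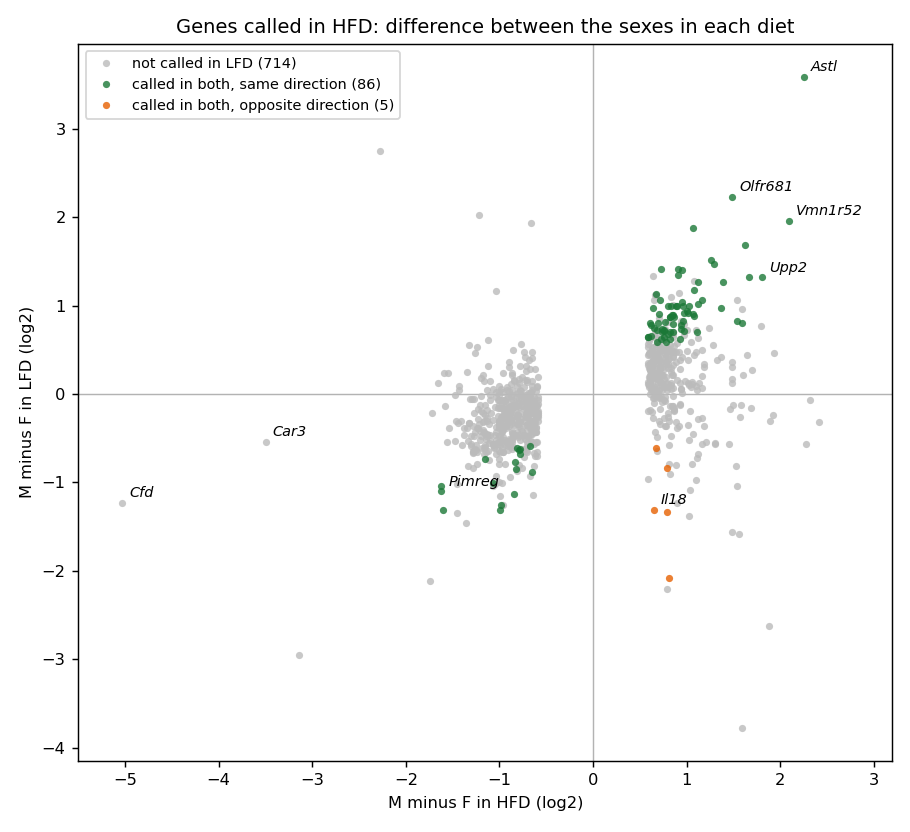
Difference between M and F in HFD (horizontal) and in LFD (vertical), both log2, for the 805 genes called in HFD and tested in both diets; green points were called in the same direction in LFD (86), orange points in the opposite direction (5) and grey points not in LFD. The gap around 0 on the horizontal axis comes from the 1.5-fold threshold of the calls, and more green points lie on the male side (70) than on the female side (16).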

How the data were processed

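Colon RNA of 24 mice was labeled with Cy3 and hybridized to Agilent 1-color mouse arrays, 1 mouse per array, and the labels gave 4 mice per group where the methods name 5. Per the file headers, scans were read by Feature Extraction 11.0.1.1 software. The deposited values used here are processed signals, spot intensities on a linear scale with background subtracted and no normalization between arrays, with median spot and background intensities and flags. Arrays carry signal over background in place of read depth, and their number limits the precision.

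Control spots were removed, flagged outliers were treated as missing, and the log2 intensities of the spots of a probe were averaged. The 24 arrays were then brought to a common distribution by quantile normalization. Accessions of 32994 of 56605 probes (58.3%) matched a RefSeq gene table of GRCm38.p6, and since the array was annotated on mm9, no probe or gene coordinates are given beyond the RefSeq promoter windows on GRCm38.p6. The brightest probe stood for a gene, which was tested when at least 1 group had it well above background on each of its 4 arrays. Groups were compared on 8 arrays in limma 3.58.1 (lmFit, eBayes; R 4.3.3), with Benjamini-Hochberg adjustment over all 20348 genes tested, and counts are over autosomal genes with a symbol. The difference between diets was a contrast over 16 arrays. Single genes were also compared by exact permutation, two-sided. Named genes were the 12 largest separated calls each way, the largest bounds for genes above background in 1 group only, up to 5 called members of each list each way and its brightest members, genes the study names, hormone receptors and the lowest p between diets; all others were chosen after their values were seen. The comparison, lists and named genes were chosen with earlier results of these data known. Gene lists were counted, not tested. Values of 4 genes are not reported here, although counts and medians include them.

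On simulated data (20342 genes) limma called 89.0% of genes changed 2-fold, 99.0% of those changed 4-fold and 2.44% of unchanged genes. At an adjusted p under 0.05 the shares of changed genes were 38.0% and 82.0%. Each gene was drawn separately from a normal distribution with its own mean and SD, without a slide effect or shifts shared by many genes. The shares hold for such data and do not give the error rates of the real arrays. Alternatives covered the normalization, background correction, dim probes, probe choice, test, samples fitted, array weights, replicate block and each array left out.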

Additional observations from a re-analysis of the deposited data

Results flagged for a closer look

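Within groups of 4 arrays, the highest or lowest array was set against the other 3 for 111 named genes, and 17 of 222 groups had an array far from the others by Dixon's ratio, where chance gives about 1 in 20, or 11.1. F + HFD 3 read low for Zc3h12a (2.76, others 4.15 to 4.42), Olfr681 (3.05, others 4.49 to 4.52), Slc1a3 (5.57, others 6.04 to 6.07), Fabp4 (10.78, others 11.52 to 11.62), Hoxb7 (6.56, others 7.16 to 7.28) and Muc2 (16.34, others 17.00 to 17.12). M + HFD 2 read low for Klhl30 (2.30, others 4.90 to 5.01) and Tagln (14.10, others 15.46 to 15.72) and high for Hk2 (12.25, others 11.01 to 11.19). M + HFD 3 read low for Atp12a (8.21, others 10.63 to 10.98) and Elf3 (12.17, others 12.63 to 12.69). F + HFD 2 read low for Smco1 (2.15, others 4.45 to 4.81). F + HFD 4 read low for Myc (7.82, others 9.01 to 9.22) and high for C2cd2l (12.34, others 12.13 to 12.15). F + HFD 1 read high for Met (10.54, others 10.28 to 10.32), M + HFD 1 low for H2-Q7 (13.37, others 13.82 to 13.91) and M + HFD 4 high for Cd3g (7.91, others 7.09 to 7.15).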

How the results depend on the processing

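The counts of calls stayed within 1.5 times of the values given in 86 of 105 alternatives, and the others follow. With normexp background correction 542 genes were called in HFD, 233 of them higher in M, and 198 in LFD. With the methods' t-test the counts were 514 in HFD, 241 of them higher in F, and 240 in LFD, and 0 genes in HFD had an adjusted p under 0.05. Without a filter on dim probes 622 genes were called in LFD. With the replicate block the counts were 824 in HFD, 886 in LFD and 0 at an adjusted p under 0.05 in HFD. Deviations of same-numbered M + HFD and F + HFD arrays correlated at r = 0.01, -0.03, -0.41 and 0.07, so the numbers do not pair these mice. Leaving out 1 array at a time gave 665 to 1131 calls in HFD, 293 to 493 higher in M and 350 to 641 higher in F, 246 to 843 in LFD and 218 to 708 for the difference between diets. The lowest and highest of these came without F + HFD 4 and F + HFD 3 in HFD, M + LFD 1 and M + LFD 4 in LFD, and F + HFD 2 and F + HFD 3 between diets, where the count was also 229 without F + LFD 4, 528 without M + LFD 3, 562 without M + HFD 3, 591 without F + LFD 2 and 699 without M + LFD 4, and in LFD 767 without M + LFD 3 and 787 without F + LFD 2. The count at an adjusted p under 0.05 in HFD was 0 to 4 in all alternatives except 1 fit of all 24 arrays, which gave 25. Pigr turned to -0.05 with the mean of its probes. Of 87 named genes that were called, 34 kept the call in every alternative, among them Upp2, Astl, Car4, Slc15a1, Cxcl1, Cfd, Car3, Thrsp and Kif11. Without at least 1 array, 36 lost it, among them Klhl30, Hand1, Map1a, Atp12a, Cldn4, Cd3d, Pcp4, Tagln, Fabp4, Tubb3, Ckm, Ccl7, Il18, P4ha1, Slc2a1, Hsd17b2, Hsd17b7, Insig1, Lss, Rrm2, Birc5, Atf3, Maff, Myc, Cd44, Znrf3, Axin2, Hlf, Hoxb7 and F11r. Leaving out both M + LFD arrays with low Hoxb13, M + LFD 1 and M + LFD 2, chosen after seeing the data, gave 382 calls in LFD and 482 between diets. The cause of these shifts was not tested.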
